A study of Anolis sagrei with 10 samples.

Results

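The paired-type homeodomain factors PRRX1, PRRX2, ALX1, ALX4, SHOX and SHOX2 and the basic helix-loop-helix (bHLH) factors TWIST1 and TWIST2 were looked up in limb buds of the brown anole, Anolis sagrei, a lizard. Members were these 8 listed symbols where present. The authors' deposited table paired 12476 of 25920 gene identifiers with a symbol, and 4 of the 8 were among them: ALX1, ALX4, SHOX2 and TWIST1. All 4 passed the filter on low counts, among 15595 genes tested. PRRX1, PRRX2, SHOX and TWIST2 carried no symbol there and were not analysed here.

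The samples were 5 forelimb and 5 hindlimb libraries from wild type embryos at stage 7, a single stage with no treatment named, and the libraries are numbered 1 to 5 in each limb. Left and right buds are not told apart in the labels, which speak of pairs of buds, and RNA came from whole buds, so every value mixes mesenchyme with ectoderm, muscle precursors and vessels. The labels do not say whether a number marks 1 embryo, a pool or a day. In fits with the replicate number as a block, the limb p-values measure the spread of limb differences over the 5 numbers. Without the block they measure the spread between libraries of a limb. Either spread may be partly technical.

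Paired-type homeodomain proteins bind DNA through a homeodomain, and in mouse limb buds Prrx1, Alx4 and Shox2 are transcribed in the mesenchyme that later forms skeleton and connective tissue. Mouse Alx4 is known from the anterior part of the bud, where its loss gives extra digits and posterior signalling on the wrong side. Shox2 is known in mouse for the proximal skeleton, the upper arm and thigh. Twist1 acts in dimers with other bHLH proteins, and mouse embryos without it form poor limb buds.

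Levels are given as CPM, a gene's read count relative to its library total, with that total first multiplied by a scaling factor (TMM). Library totals ran from 41808148 to 54998469 counts. TBX5, the forelimb T-box factor, spanned 428 to 554 CPM over forelimb and 1 to 2.88 CPM over hindlimb libraries, and PITX1, a hindlimb homeodomain factor, at 0.155 to 0.55 and 25.8 to 44.7 CPM, so the limb labels matched these genes in all 10 libraries. The 4 genes had 205 to 5374 counts per library. The lowest count, 205 for ALX1 in forelimb replicate 3, has an exact Poisson 95% interval of 178 to 235, which covers counting error only. Gene lengths were not used here, so levels are compared between libraries for the same gene and not between genes.

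None of the 4 genes passed the threshold between the limbs. With the replicate number as a block, edgeR's quasi-likelihood test with Benjamini-Hochberg adjustment called 0 of 4 at an adjusted p under 0.05, where it called 1.33% of all genes tested. DESeq2 with the same block also called 0 of 4 (3.45% of all genes), as did limma voom (1.48%) and edgeR without the block (0.199%). An unadjusted p under 0.05 was given to 2 of the 4, ALX1 and ALX4, and to 13.8% of all genes tested. The fitted log2 fold changes, forelimb over hindlimb, were below 0 for each of the 4, from -0.85 to -0.15, beside a median of 0 over all genes tested. The limbs overlapped for all 4, and 1.19% of tested genes had limbs that did not overlap.

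**Figure D1:**
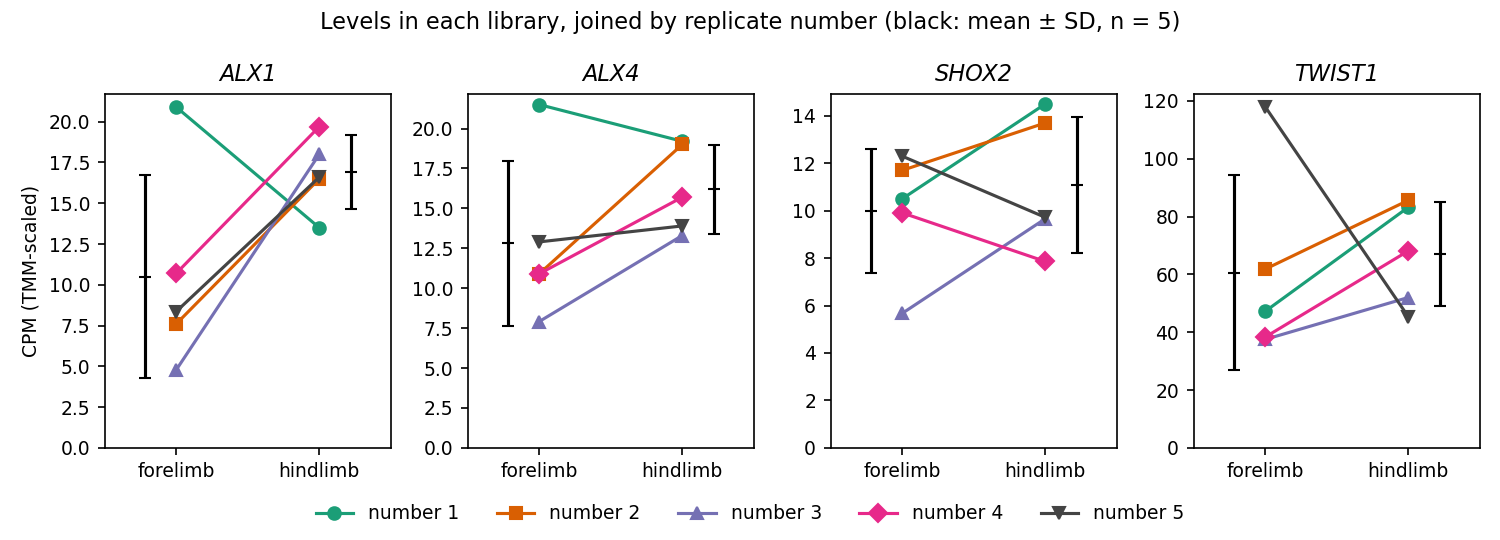
CPM of ALX1, ALX4, SHOX2 and TWIST1 on the y axis in forelimb and hindlimb libraries, with lines joining libraries of the same replicate number and black bars for mean ± SD (n = 5). The lines for ALX1 and ALX4 run up toward hindlimb except in number 1, and the line for TWIST1 runs steeply down in number 5.

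ALX1 (ENSACAG00000011108) encodes a homeodomain factor best known from the face, where its loss disturbs the skeleton around eyes and nose. In forelimb replicates 1 to 5 it was at 20.9, 7.6, 4.78, 10.7 and 8.36 CPM. In hindlimb replicates 1 to 5 it was at 13.5, 16.5, 18, 19.7 and 16.6 CPM. Forelimb replicate 1 was the highest of all 10 libraries, while the other 4 forelimb libraries lay below every hindlimb library.

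Forelimb libraries averaged 10.5 ± 6.21 CPM of ALX1 (SD, n = 5), hindlimb libraries 16.9 ± 2.26 CPM (SD, n = 5). The spread was thus wider in forelimb, with a coefficient of variation of 59.3% against 13.4%. The fitted log2 fold change was -0.85 (SE 0.32, 95% interval -1.6 to -0.11), and edgeR's adjusted p was 0.301. Intervals given here are not adjusted for the number of genes tested, so they can leave out 0 beside such an adjusted p. Hindlimb was higher in 4 of 5 pairs, by 2.17, 3.76, 1.83 and 1.98 times in numbers 2 to 5, and forelimb was higher by 1.55 times in number 1.

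The call on ALX1 depended on number 1. Without both libraries of that number the fitted log2 fold change was -1.21 (SE 0.17) and edgeR's adjusted p 0.00133, in a fit that called 2.11% of genes. Number 1 held the 1 pair with forelimb higher, so leaving it out by itself moves the fit toward hindlimb and narrows the spread. That adjusted p is no separate evidence of a limb difference. Without number 2, 3, 4 or 5 the adjusted p ran from 0.46 to 0.593 and the log2 fold change from -0.85 to -0.59. With no filter on low counts ALX1 was also called (edgeR adjusted p 1.14e-06), at an unchanged log2 fold change of -0.85, a smaller SE of 0.15 and 3.03% of 22981 genes called. The single pairs of ALX1 ran from -1.9 to 0.63 on that scale. This setting also took the SE of TWIST1 from 0.39 to 0.09, though its pairs ran from -0.83 to 1.38. Why the SE shrank was not tested, and no conclusion on a limb difference is drawn from that call of ALX1. Forelimb replicate 1 also stood apart in blood markers. The 8 blood genes with a symbol, of 9 listed, summed to 154 CPM there, to 22.4 to 25.3 CPM in the other forelimb libraries and to 15.7 to 34.1 CPM in hindlimb libraries, and none was at 0 in every library. Of these, ALAS2 and SLC4A1 made up most of the 154 CPM, at 60 and 67.3 CPM. Forelimb replicate 1 also had the lowest myoblast sum of all 10 libraries, 220 CPM. Its endothelium sum, 180 CPM, was the highest among forelimb libraries. Early limb bud mesenchyme genes (2950 CPM) and anterior-posterior limb genes (299 CPM), lists described below, also summed highest there of all 10 libraries. Hindlimb replicate 1 was the highest hindlimb library for blood (34.1 CPM), early mesenchyme (2790 CPM) and endothelium (180 CPM). The part of these cell types and lists in the ALX1 values was not tested. In whole buds, fewer cells that transcribe a gene and less RNA per cell cannot be told apart.

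ALX4 (ENSACAG00000014352), the anterior limb bud factor, was at 21.5, 10.9, 7.91, 10.9 and 12.9 CPM in forelimb replicates 1 to 5. In hindlimb replicates 1 to 5 it was at 19.2, 19, 13.3, 15.7 and 13.9 CPM. As for ALX1, forelimb replicate 1 was the highest of the 10 libraries and the other 4 forelimb libraries lay below all 5 hindlimb libraries.

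Mean ALX4 levels were 12.8 ± 5.18 CPM for forelimb libraries (SD, n = 5) and 16.2 ± 2.78 CPM for hindlimb libraries (SD, n = 5). The fitted log2 fold change was -0.40 (SE 0.15, 95% interval -0.73 to -0.08), and edgeR's adjusted p was 0.254. Hindlimb was higher in 4 of 5 pairs, by 1.08 to 1.75 times, a consistency of 4 or more pairs that 51.2% of all genes tested had in one direction or the other. Without number 1 the fitted value was -0.54 (SE 0.14) and edgeR's adjusted p 0.0681, which did not pass the threshold.

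The ratio of the paralogues ALX1 and ALX4 within a library does not depend on the library's scaling. On the log2 scale it was -0.04, -0.52, -0.72, -0.03 and -0.62 in forelimb replicates 1 to 5, and -0.50, -0.21, 0.44, 0.33 and 0.25 in hindlimb replicates 1 to 5. The mean was -0.39 ± 0.33 (SD, n = 5) in forelimb and 0.06 ± 0.40 (SD, n = 5) in hindlimb. Forelimb was lower in 4 of 5 pairs, and the mean difference over pairs was -0.45 ± 0.62 (SD, n = 5 pairs). An exact two-sided permutation test that flipped signs over pairs gave p = 0.25, where the smallest p 5 pairs allow is 0.0625. A difference of the ratio between the limbs was therefore not detectable with these pairs. It was the only ratio of listed paralogues that could be formed, so no adjustment was made.

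SHOX2 (ENSACAG00000006789), the proximal skeleton factor, was at 10.5, 11.7, 5.67, 9.91 and 12.3 CPM in forelimb replicates 1 to 5. In hindlimb replicates 1 to 5 it was at 14.5, 13.7, 9.66, 7.86 and 9.72 CPM. The ranges overlapped widely, from 5.67 to 12.3 and from 7.86 to 14.5 CPM.

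SHOX2 averaged 10 ± 2.61 CPM over forelimb libraries (SD, n = 5) and 11.1 ± 2.87 CPM over hindlimb libraries (SD, n = 5). The fitted log2 fold change was -0.15 (SE 0.17, 95% interval -0.53 to 0.22), and edgeR's adjusted p was 0.76. That interval spans a forelimb level of 0.693 to 1.16 times the hindlimb level, so a change of 2-fold lay outside it in either direction. The pairs were split, with hindlimb higher in numbers 1, 2 and 3 and forelimb higher in numbers 4 and 5, by 1.26 and 1.27 times.

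TWIST1 (ENSACAG00000011825), the bHLH factor, was at 47.2, 61.8, 37.5, 38.3 and 118 CPM in forelimb replicates 1 to 5. In hindlimb replicates 1 to 5 it was at 83.2, 85.6, 52, 68.1 and 45.4 CPM. Forelimb replicate 5 was the highest of the 10 libraries, and hindlimb replicate 5 was the lowest of the 5 hindlimb libraries.

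TWIST1 averaged 60.6 ± 33.7 CPM over forelimb libraries (SD, n = 5) and 66.9 ± 18 CPM over hindlimb libraries (SD, n = 5). The fitted log2 fold change was -0.27 (SE 0.39), and edgeR's adjusted p was 0.841. Its 95% interval, -1.28 to 0.74, was the widest of the 4 genes and included a change of 2-fold toward hindlimb. Hindlimb was higher in numbers 1 to 4, by 1.76, 1.39, 1.39 and 1.78 times, and forelimb was higher by 2.6 times in number 5.

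The call on TWIST1 depended on number 5. Without it the fitted log2 fold change was -0.64 (SE 0.09) and edgeR's adjusted p 0.00364, in a fit that called 1.45% of genes. Number 5 held the 1 pair with forelimb higher, so leaving it out by itself moves the fit toward hindlimb and narrows the spread. That adjusted p is no separate evidence of a limb difference. Without number 1, 2, 3 or 4 the adjusted p ran from 0.915 to 0.973. The total count of forelimb replicate 5, 45608067, lay within the range of the other libraries, and its scaling factor was 0.9968. Reads shared with TWIST2 could not be separated, because the handling of shared reads is not given in the sources used here.

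**Figure D2:**
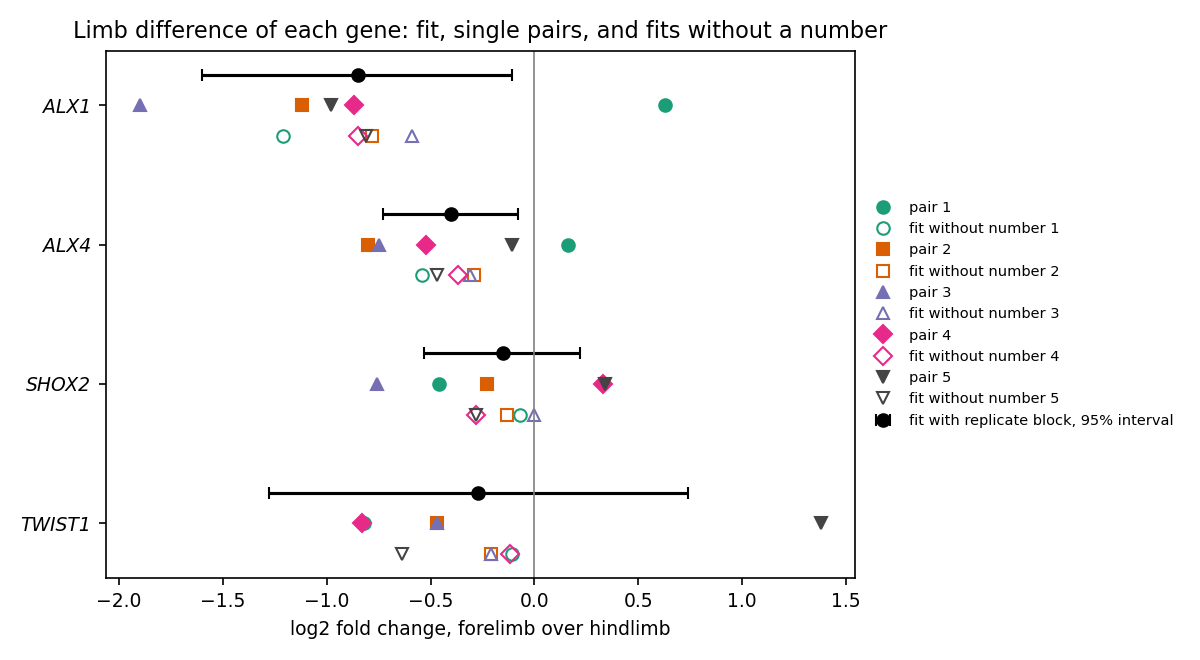
Log2 fold change, forelimb over hindlimb, on the x axis for each of the 4 genes: the fit with replicate block and its 95% interval (black), the 5 single pairs (filled) and the 5 fits that leave out a number (open). Pair 1 stands to the right for ALX1 (0.63) and pair 5 for TWIST1 (1.38); for TWIST1 the markers of pairs 1 and 4 and of pairs 2 and 3 nearly coincide.

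The authors' deposited table put ALX1 at -0.33 on the log2 scale (SE 0.15) with an adjusted p of 0.817. In the authors' deposited table ALX4 was at -0.20, SHOX2 at -0.09 and TWIST1 at -0.07, each with an adjusted p of 1 after rounding. All 4 values in the authors' deposited table had the sign found here and were smaller in size than those of edgeR with replicate block. Without the block, edgeR put ALX1 at -0.69 (SE 0.31) and ALX4 at -0.34. The authors' model and way of estimating may differ from those used here, so the sizes are not like for like.

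Libraries were also compared between replicate numbers. The numbers were tested together in the same fit, with limb in the model, and this edgeR test called 25.8% of all genes at an adjusted p under 0.05. ALX4 was the 1 gene of the 4 called, with F = 4.83 and an edgeR adjusted p of 0.0498. Its pair means ran from 10.6 CPM in number 3 to 20.4 CPM in number 1. That call lay at the threshold, and it was lost with RLE scaling (adjusted p 0.0512, 25.6% of genes called) and without number 1, 2, 3 or 4 (0.0505 to 0.257). SHOX2 had an adjusted p of 0.17, with pair means from 7.67 CPM in number 3 to 12.7 CPM in number 2. ALX1 had an adjusted p of 0.549 and TWIST1 one of 0.683. Without number 5, TWIST1 was called as well (edgeR adjusted p 0.00554), in a fit that called 27.6% of genes, and with no filter on low counts all 4 genes were called, beside 26.1% of all genes. Leaving out the filter took F for TWIST1 from 0.78 to 14, and the reason was not tested.

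Divided by source, the sum of squares of log2 CPM over the 10 libraries showed different profiles. For ALX1, limb held 41.2%, number 20.3% and the remainder 38.5%. For ALX4 these shares were 22.9%, 57.2% and 19.8%, and for SHOX2 they were 4.29%, 61.9% and 33.8%. For TWIST1, limb held 5.49% and number 30.8%, and 63.7% was left to the remainder, where the opposed libraries of number 5 fall. Over all genes tested the median shares were 5.56%, 65.9% and 21.5%. Number takes 4 of the 9 degrees of freedom (44.4%) and limb 1 (11.1%), so number holds a larger share than limb even where neither has an effect. These shares are a description with no test.

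**Figure D3:**
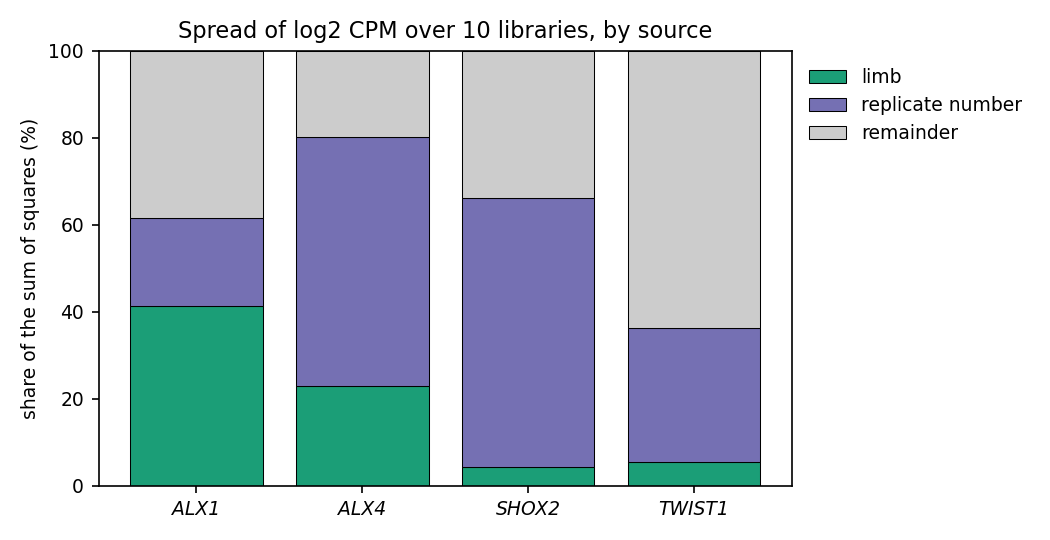
Share of the sum of squares of log2 CPM over 10 libraries (y axis, percent) held by limb, replicate number and the remainder for each gene. The limb part is largest for ALX1 (41.2%), the number part for SHOX2 (61.9%) and the remainder for TWIST1 (63.7%).

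Forelimb replicate 3 had the lowest CPM of all 10 libraries for each of the 4 genes. It was the lowest library for 9% of all genes tested. In that library the 18 cartilage and bone genes with a symbol summed to 3870 CPM, above the 2530 to 2810 CPM of the other forelimb libraries and within the 2030 to 4220 CPM of hindlimb libraries, and the 15 mesenchymal state genes to 7370 CPM, above their 5720 to 6690 CPM. Other lists also lay at an end there. The 15 other paired-type homeobox genes with a symbol summed to 73.9 CPM, below the 85.6 to 112 CPM of the other forelimb libraries. Hindlimb sums of this list hold 25.8 to 44.7 CPM of PITX1, nearly absent from forelimb, so they are not set beside it. Neural crest and glia genes summed to 57.7 CPM, the highest among forelimb libraries. Whether any of these levels bear on the low values of the 4 genes was not tested.

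The 4 genes did not share a single pattern over libraries. Pearson's r of log2 CPM over the 10 libraries was 0.82 between ALX1 and ALX4, 0.66 between SHOX2 and TWIST1, 0.63 between ALX4 and SHOX2, and 0.10 between ALX1 and TWIST1. With each limb's mean removed these were 0.77, 0.64, 0.62 and -0.07. By ranks (Spearman's rho, limb means kept) they were 0.78, 0.68, 0.42 and 0.08. ALX4 and TWIST1 had r = 0.43 and rho = 0.39, and ALX1 and SHOX2 had r = 0.33 and rho = -0.12. Forelimb replicate 3, the lowest library for all 4 genes, enters every coefficient. The libraries are paired by number, so they are not 10 independent points and the coefficients are descriptions with no p.

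Among 9475 other tested genes with a symbol and a mean of at least 1 CPM, the 3 most like each member by Pearson's r over the 10 libraries were picked out. For ALX4 they were MEIS2 (r = 0.92), SHH (0.92) and MEIS1 (0.90). By ranks (Spearman's rho) these were 0.93, 0.78 and 0.85, so SHH was less like ALX4 by this measure. MEIS1 and MEIS2 are homeodomain cofactors that mark the proximal limb bud, and SHH is the posterior signal of the bud. In forelimb replicates 1 to 5 MEIS2 was at 136, 83.2, 65.2, 104 and 89.9 CPM and in hindlimb replicates 1 to 5 at 153, 160, 118, 125 and 117 CPM. Like ALX4 it was highest among forelimb libraries in number 1 and lowest in number 3. Its log2 fold change was -0.52, with an edgeR adjusted p of 0.0573. SHH was at 14.5 and 11.2 CPM in the forelimb and hindlimb libraries of number 1 and at 0.0467 to 4.96 CPM in the other 8 libraries. Its lowest value, close to 0, was in forelimb replicate 3, where ALX4 was lowest too.

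For TWIST1 the 3 were WBP1 (r = 0.99), GBA2 (0.98) and GTF3C2 (0.97), and 34 genes in all exceeded r = 0.90. GBA2 is a glucosylceramidase and GTF3C2 a subunit of an RNA polymerase III initiation factor. WBP1 reached 61.5 CPM in forelimb replicate 5, where forelimb replicates 1 to 4 had 23.9 to 35.6 CPM. Hindlimb replicate 5 had 29.5 CPM of it, and hindlimb replicates 1 to 4 had 33.2 to 49.2 CPM. These genes were picked for their likeness over the same libraries, so a shared pattern follows from the choice. For ALX1 the 3 were GABRA4 (r = 0.89), SYT1 (0.88) and HSPA13 (0.87), and for SHOX2 they were ZNF503 (0.89), PAX1 (0.88) and SLC18A2 (0.86). No gene exceeded r = 0.90 for ALX1 or SHOX2.

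**Figure D4:**
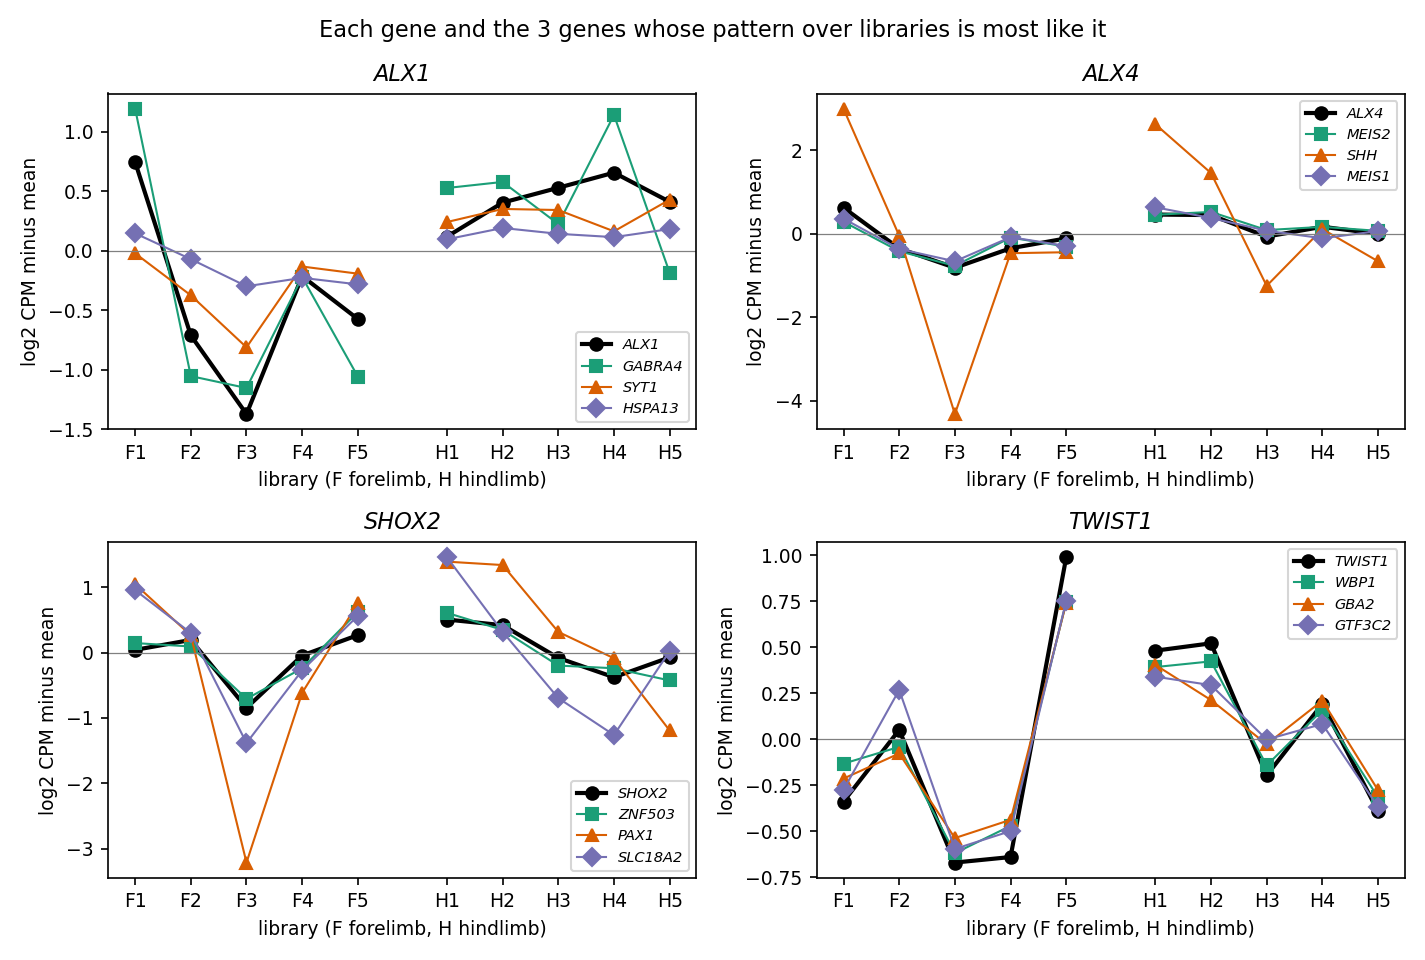
Log2 CPM minus the gene's mean over 10 libraries (y axis) in each forelimb (F1 to F5) and hindlimb (H1 to H5) library, for each of the 4 genes (black) and the 3 genes most like it. The TWIST1 curve and its 3 neighbours peak together in forelimb replicate 5, while ALX4, MEIS1 and MEIS2 are low in forelimb replicate 3.

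Other genes of the families and tissue of these factors were counted by list, beside the 1.33% of all genes that the paired edgeR fit called. Of 30 other paired-type homeobox genes listed, 15 had a symbol and 10 were tested. The median log2 fold change was 0.03, and 1 was called, PITX1, higher in hindlimb (-6.79 ± 0.37 SE, edgeR adjusted p 0.000125). PITX1 had already served to check the limb labels, so its call adds nothing new. None of the remaining 9 was called. Among them was GSC, a homeodomain factor first known from the embryonic organiser, averaging 22.6 CPM over forelimb and 20 CPM over hindlimb libraries. PAX3, a paired-type factor of migrating muscle precursors, averaged 21.2 CPM over forelimb and 15 CPM over hindlimb libraries (log2 fold change 0.53, SE 0.13, edgeR adjusted p 0.0639).

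Of 19 bHLH partners, relatives and inhibitors of TWIST, 9 were tested and 1 was called, beside 1.33% of all genes. TCF4, an E protein that dimerises with TWIST factors, was higher in forelimb, at 447 ± 29 CPM (SD, n = 5) against 362 ± 20.7 CPM. The fitted log2 fold change was 0.30 (SE 0.06) and edgeR's adjusted p 0.031, and forelimb was higher in 5 of 5 pairs. Without the block the adjusted p was 0.418, and the call was lost without number 2, 3 or 4. TCF12, another E protein, was at 151 and 139 CPM (adjusted p 0.555), and HAND2, the posterior bHLH factor, at 34.6 and 31.6 CPM (adjusted p 0.65). MSC, a bHLH repressor, lay the other way, at 9.62 and 17.6 CPM (log2 fold change -1.01, SE 0.26, edgeR adjusted p 0.131), and was called by DESeq2 and by edgeR without number 5. The list's median log2 fold change was 0.10.

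Of 29 early limb bud mesenchyme genes, 22 were tested and 4 were called, all higher in forelimb, and the median log2 fold change was 0.18. The share called in this direction over all genes tested was 0.705%. TBX18, a T-box factor of the early bud, averaged 223 ± 34.1 CPM over forelimb libraries (SD, n = 5) and 134 ± 13.7 CPM over hindlimb libraries. Its fitted value was 0.73 (SE 0.09), and edgeR's adjusted p was 0.000696. EMX2, a homeodomain factor of the limb girdles, had 0.59 ± 0.09 (SE), OSR2, a zinc finger factor of joints, 0.47 ± 0.10, and ETV5, a transcription factor induced by FGF signals, 0.29 ± 0.06. Their edgeR adjusted p were 0.00554, 0.0432 and 0.0414. Without the block TBX18 alone was called, which was also so without number 2, and TBX18 and EMX2 alone were called without number 3. OSR2 and ETV5 also lost their calls without number 4 or 5. An unadjusted p under 0.05 was given to 15 of the 22 (13.8% of all genes), and DESeq2 called 9 of them (3.45% of all genes), MEIS1, MEIS2 and BMP4 included, which had negative fold changes here.

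Of 15 tested mesenchymal state genes 3 were called, beside 1.33% of all genes. An unadjusted p under 0.05 was given to 10 of the 15 and to 13.8% of all genes, and DESeq2 called 7 of them, adding COL1A2, LUM, POSTN and TNC, beside 3.45% of all genes. The list's median log2 fold change was 0.13. VIM, an intermediate filament of mesenchymal cells, was higher in forelimb (0.38 ± 0.06 SE, edgeR adjusted p 0.00669), and so was COL1A1, a fibrillar collagen chain (0.42 ± 0.08 SE, adjusted p 0.017). CDH2, the neural cadherin of condensing mesenchyme, was higher in hindlimb (-0.39 ± 0.07 SE, edgeR adjusted p 0.0218). None of the 3 was called without the block or without number 2. COL1A1 was also lost without number 3 or 4, and CDH2 without number 3 or 5.

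Of 17 tested cartilage and bone genes 2 were called, both higher in hindlimb, a direction in which 0.628% of all genes were called. GDF5, a joint growth factor, averaged 268 ± 77 CPM over forelimb libraries (SD, n = 5) and 377 ± 102 CPM over hindlimb libraries (log2 fold change -0.49 ± 0.06 SE, edgeR adjusted p 0.000696). PTHLH, a signal that holds back cartilage maturation, averaged 3.99 ± 1.96 and 7.08 ± 2.33 CPM (log2 fold change -0.91 ± 0.18 SE, edgeR adjusted p 0.0303). Neither was called without the block, and PTHLH lost its call without number 2, 3, 4 or 5. None of 7 tested anterior-posterior limb genes was called by edgeR, beside 1.33% of all genes. Among them were GLI3 (0.28 ± 0.08 SE, edgeR adjusted p 0.148) and HOXD12 (0.44 ± 0.24 SE, edgeR adjusted p 0.454), and HOXD12 was called without number 1. An unadjusted p under 0.05 was given to 2 of the 7 and to 13.8% of all genes. DESeq2 and limma voom called 0 of the 7, beside 3.45% and 1.48% of all genes.

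**Figure D5:**
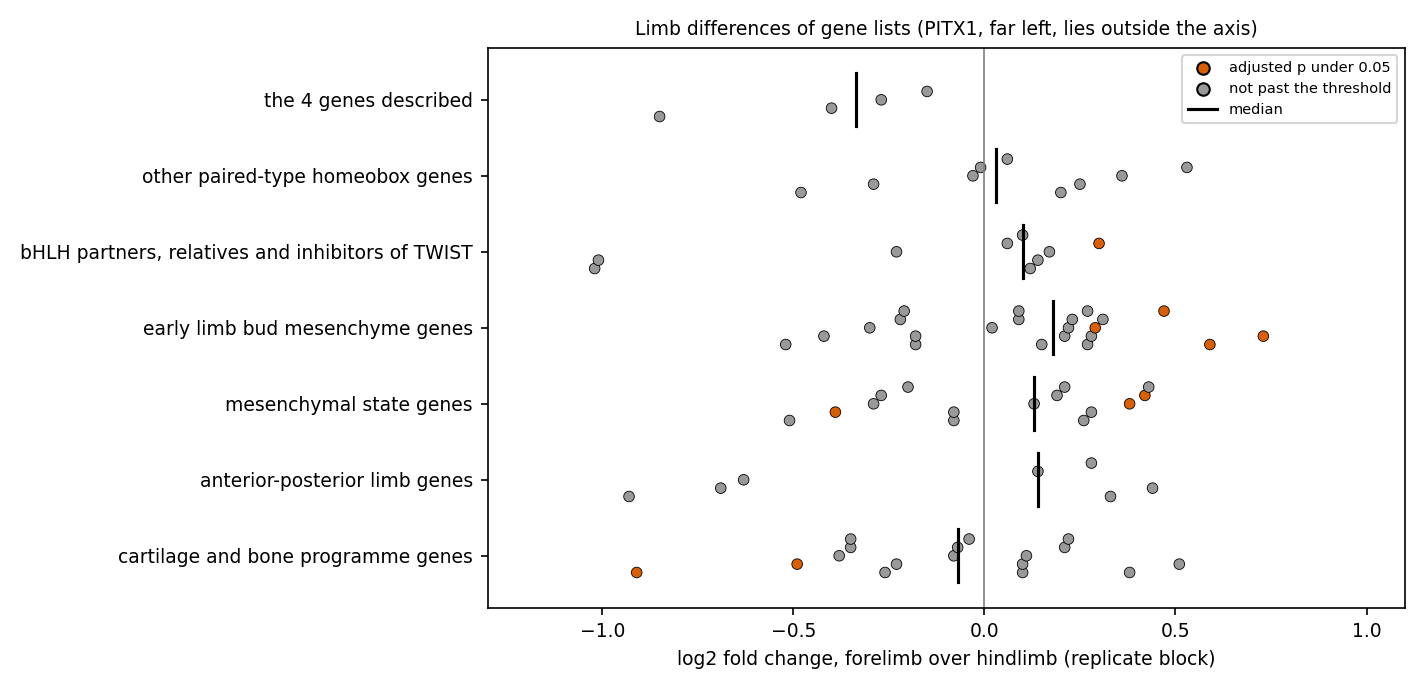
Log2 fold change, forelimb over hindlimb, in the fit with replicate block (x axis) for the 4 genes and 6 gene lists, with called genes in orange and each median as a black line. The 4 genes lie left of 0 without a call, and the 4 called mesenchyme genes lie right of 0; PITX1, at -6.79, is outside the axis.

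Markers of other cell types were not called between the limbs, with 1 exception. None of 9 tested ectoderm, 7 myoblast, 5 endothelium, 6 blood and 5 neural crest and glia genes was called by edgeR, beside 1.33% of all genes. An unadjusted p under 0.05 was given to 5 of these 32 genes and to 13.8% of all genes. Limma voom called 0 of them, beside 1.48% of all genes. DESeq2, which called 3.45% of all genes, called 1, PAX3, which edgeR also called without number 1 or 5. Summed ectoderm levels were 462 to 547 CPM in forelimb and 409 to 646 CPM in hindlimb libraries, and summed myoblast levels 220 to 359 and 277 to 346 CPM. Endothelium genes summed to 111 to 180 and 122 to 180 CPM, and neural crest and glia genes to 40 to 57.7 and 23.8 to 59.9 CPM. WT1, a factor of the body cavity lining and mesonephros, averaged 0.549 ± 0.516 CPM over forelimb libraries (SD, n = 5) and 1.84 ± 0.611 CPM over hindlimb libraries (log2 fold change -2.05 ± 0.45 SE, edgeR adjusted p 0.0414), a call lost without the block and without number 2, 3, 4 or 5. Its part in the values of the 4 genes was not tested.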

How the data were processed

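RNA from 5 forelimb and 5 hindlimb bud samples was sequenced. The deposited files hold raw read counts per gene for single libraries. The submitters' processing notes name STAR, featureCounts, DESeq2 and FastQC; versions, genome build, annotation, strand setting and shared reads are not given in the sources used here. The authors' deposited table holds a mean normalised count (a signal value), a log2 fold change with its SE, a test statistic (a score), p-values and adjusted p-values. Symbols came from it, in upper case. Gene identifiers carry Ensembl's prefix for the green anole, Anolis carolinensis, a related species.

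Counts were tested with edgeR 4.0.16 in R 4.3.3, quasi-likelihood with robust estimates, TMM scaling and the default filter (minimum count 10, minimum total 15), adjusted over 15595 genes by Benjamini-Hochberg at 0.05. The replicate number was a block, because the comparison was set as paired by number, and the same fit without it is an alternative. Log2 CPM used a prior count of 2. DESeq2 1.42.0 and limma 3.58.1 were alternatives. Same-numbered libraries of the 2 limbs correlated at 0.51 to 0.75 in their deviations from limb means over 9747 genes. Different numbers correlated at -0.41 to 0.12. Deviations from a limb mean sum to 0, so positive values for same numbers draw the others down. The pairing did not rest on this check. Libraries of 1 limb differed beyond sampling noise (chi-square per degree of freedom at least 34.3). Procedures were also run on simulated counts, whose results are not given here. Each gene's spread followed the trend with abundance, and no single discordant library was simulated. The simulation therefore does not bear on the calls of ALX1 and TWIST1.

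Genes were named by rule: every member, list genes that were called, and the 3 genes most like each member. GSC, PAX3, TCF12, MSC, HAND2, COL1A2, LUM, POSTN, TNC, GLI3, BMP4, HOXD12, ALAS2 and SLC4A1 were chosen after their values were seen. Members and lists were chosen with earlier results of these data known.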

Additional observations from a re-analysis of the deposited data

Results flagged for a closer look

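Forelimb replicate 4 had 54998469 counts, and the other forelimb libraries 42151036 to 45608067. The gap to the nearest library was 0.731 of the range, above the limit of 0.71 for 5 samples. This was the 1 such gap in 12 sets of values, covering the 4 genes, the ALX1 to ALX4 ratio and the totals in each limb, and chance gives about 1 in 20. No library passed this limit for ALX1, ALX4, SHOX2 or TWIST1. Forelimb replicate 5 stayed under it with 118 CPM of TWIST1, where forelimb replicates 1 to 4 had 37.5 to 61.8 CPM. Staying under the limit does not clear the libraries on which the calls of ALX1 and TWIST1 depended.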

How the results depend on the processing

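The list counts under other settings were added after seeing the data; the other alternatives were planned. Over 11 alternatives the log2 fold changes ran from -1.21 to -0.59 for ALX1, from -0.54 to -0.29 for ALX4, from -0.28 to 0 for SHOX2 and from -0.64 to -0.11 for TWIST1, and none reversed. Of these 44 values, 41 stayed without a call. The 3 called were ALX1 without number 1 and TWIST1 without number 5, given above, and ALX1 with no filter on low counts, at an adjusted p of 1.14e-06 over 22981 genes. That setting thus called 1 of the 4 genes. It also gave smaller SEs, 0.15 against 0.32 for ALX1 and 0.09 against 0.39 for TWIST1.

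The limb comparison called 208 genes, 110 toward forelimb and 98 toward hindlimb. With no replicate block 31 were called (16 and 15), with no filter 697 (409 and 288) and by DESeq2 with replicate block 538 (304 and 234). The cause was not tested. The block changed no call among the 4 genes (adjusted p of 1 after rounding without it), but with no replicate block the called genes fell to 0 of the TWIST bHLH list, 1 of the early mesenchyme list, 0 of the mesenchymal state list and 0 of the cartilage list.

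Leaving out a replicate number gave 58 to 330 calls (30 to 207 higher in forelimb and 28 to 123 in hindlimb) and 0 to 1 of the 4 genes, with 330 calls without number 1 and 58, 69 and 97 without numbers 2, 3 and 4. Called list genes ran from 1 to 2 (paired-type), 0 to 2 (TWIST bHLH), 1 to 5 (early mesenchyme), 1 to 3 (mesenchymal state), 0 to 1 (anterior-posterior) and 1 to 2 (cartilage). These fits hold fewer samples.

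Between replicate numbers 4024 genes were called, and 2583 to 4309 when a number was left out (2583 without number 3). Of the 4 genes, 1 was called, 0 with RLE scaling, 4 with no filter, and 0 to 2 when a number was left out. Without number 5 the 2 were ALX4 and TWIST1, at adjusted p of 0.0296 and 0.00554. The ALX1 to ALX4 difference ran from -0.67 to -0.27 over 6 alternatives, with exact permutation p from 0.125 to 0.5. The smallest p this test allows is 0.125 with 4 pairs, as when a number is left out, and 0.0625 with 5 pairs. No setting could therefore have passed 0.05, and these p-values do not decide whether the ratio differs.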
